A study of Mus musculus with 6 samples.

Results

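The olfactory receptor cluster on chromosome 2 was described in liver DNA of mouse offspring. Its members were the probes whose start lay in a fixed interval of chromosome 2 around the receptor genes, which ran from 85171554, the start of the first probe, to 89893562, the end of the last (mouse build mm9, the build of the array design), and regions were runs of at least 3 such probes with starts at most 1000 bp apart. The rule used position alone. It took 1599 probes, of which 5 carried a spot flag. The 1594 that remained held 1592 probes in 216 regions, out of 21987 regions on the array, and 2 probes in shorter runs. The study compared offspring of dams fed a chromium restriction diet with offspring of dams fed a control diet, 3 arrays per group, all at 32 weeks of age. The labels give liver as the tissue and name fat in the extraction step. Strain, sex, litter and pooling are not given in the sources used here, so the spread behind every p-value is that between these arrays and may be technical. Liver markers could not be checked, since regions were not matched to genes.

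Olfactory receptors are G protein-coupled receptors by which sensory neurons of the nose detect odorants. Their genes lie in clusters, and a mature sensory neuron transcribes a single allele of a single receptor gene, while the other receptor genes are kept in silent chromatin. In liver the family is regarded as silent. Its promoters are known as poor in CG pairs, the sites at which mammalian DNA is mainly methylated.

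The array measured methylated DNA immunoprecipitation (MeDIP), in which an antibody pulls down fragments with methylated cytosine. Immunoprecipitated DNA carried the red dye and input DNA the green dye on every array. A region's level is the mean over its probes of log2 of processed red divided by processed green signal, after each array was centred on its median probe. A value of 0 is therefore the level of the median probe of that array, and a higher value is taken as more methylated DNA. Values by array are given in the order of arrays 1, 2 and 3 of each group, with "restriction" for offspring of chromium-restricted dams.

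Sequences around the annotated gene starts are shown first, since MeDIP reads methylated CG pairs and these windows hold few. In RefSeq (GRCm38.p6), 222 protein-coding olfactory receptor genes, 71 olfactory receptor pseudogenes and 3 other protein-coding genes (Fads2b, Pramel6 and Pramel7) lay between Lrrc55 and Ptprj, the flanking genes on chromosome 2. The table of windows, each 250 bases before to 50 after an annotated start, held 187 sequences of 186 of these receptor genes. In 130 of the 187 (69.5%, against 5.83% of all windows of the table) the 3 bases after the start were ATG, a start codon. The annotated start of these genes thus coincides with ATG, and such a window need not hold the promoter. The windows could not be placed on the array's regions, since the builds differ, and are described as a set.

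The median window of the cluster held 1 CG pair (quartiles 0 and 2, highest 7), against 7 over all 32851 windows of the table (quartiles 3 and 20). No CG pair was found in 67 of the 187 (35.8%), against 5.43% of all windows, and 0 of the 187 had 10 or more, against 43.5%. The share of G and C was 32.0% ± 4.50 (SD over 187 windows), against 53.8% ± 11.3 over all. The contrast was smaller against windows of the same kind of start. Over the 1915 windows of the table with ATG at the start, the median was 2 CG pairs and 22.1% had none, and over the cluster's 130 the median was 1 and 37.7% had none. The cluster's 57 windows without ATG at the start also had a median of 1, and 31.6% had none, against a median of 8 and 4.40% of the 30936 such windows of the table.

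**Figure D1:**
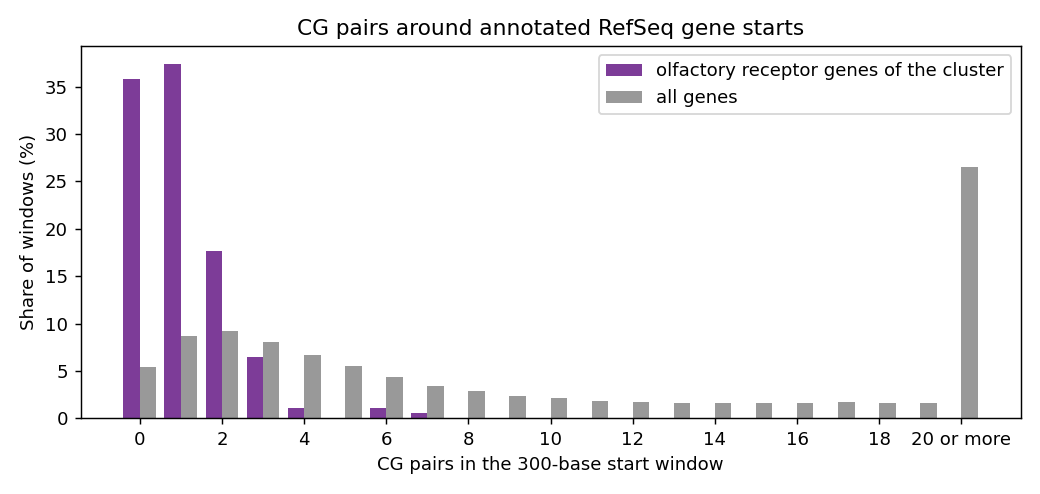
Share of windows (%) by the number of CG pairs in the 300 bases around an annotated start, for the 187 windows of olfactory receptor genes of the cluster and for all 32851 windows of the RefSeq table; the last class holds 20 or more pairs. The cluster's windows lie between 0 and 7 pairs, with a median of 1.

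Here 4 windows are printed to show that contrast, with CG pairs in capitals. They are the first in gene order with no CG pair, the first with the median number, the richest of the cluster and, for comparison, the window richest in CG pairs of the flanking gene Ptprj, a receptor tyrosine phosphatase. Positions are on GRCm38.p6. In the 3 receptor genes the last 50 bases begin with ATG.
Olfr992, chr2:85400482-85400781, minus strand, 0 CG pairs: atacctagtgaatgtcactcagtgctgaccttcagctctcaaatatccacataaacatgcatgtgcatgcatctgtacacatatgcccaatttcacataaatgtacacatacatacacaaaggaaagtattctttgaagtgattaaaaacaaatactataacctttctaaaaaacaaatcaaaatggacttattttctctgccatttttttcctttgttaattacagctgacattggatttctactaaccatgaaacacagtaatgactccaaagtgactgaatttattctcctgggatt
Olfr988, chr2:85353875-85354174, minus strand, 1 CG pair: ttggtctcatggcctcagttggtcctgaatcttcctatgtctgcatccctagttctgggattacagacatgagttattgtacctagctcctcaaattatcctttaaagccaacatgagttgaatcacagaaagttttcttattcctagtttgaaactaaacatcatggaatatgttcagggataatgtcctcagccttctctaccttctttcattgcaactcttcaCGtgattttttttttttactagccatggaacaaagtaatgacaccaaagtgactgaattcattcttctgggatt
Olfr1212, chr2:88958218-88958517, plus strand, 7 CG pairs: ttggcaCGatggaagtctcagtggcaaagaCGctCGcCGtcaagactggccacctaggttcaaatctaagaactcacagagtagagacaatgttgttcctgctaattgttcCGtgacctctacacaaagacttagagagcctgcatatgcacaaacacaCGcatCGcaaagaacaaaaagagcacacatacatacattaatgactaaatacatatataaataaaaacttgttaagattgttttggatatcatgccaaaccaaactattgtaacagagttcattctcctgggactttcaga
Ptprj, chr2:90580546-90580845, minus strand, 42 CG pairs: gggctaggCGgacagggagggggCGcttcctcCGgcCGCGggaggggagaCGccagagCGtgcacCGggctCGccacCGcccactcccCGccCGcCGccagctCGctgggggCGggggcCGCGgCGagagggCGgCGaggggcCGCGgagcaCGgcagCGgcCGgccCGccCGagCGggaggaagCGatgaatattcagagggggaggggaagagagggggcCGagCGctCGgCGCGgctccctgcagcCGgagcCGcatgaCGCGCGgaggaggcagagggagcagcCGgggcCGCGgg
The motif TAATNA, the core of many homeodomain sites, was present on either strand in 149 of the 187 windows (79.7%, against 26.5% of all windows of this length), among them the 3 receptor windows printed. It was in 78.5% of the cluster's windows with ATG at the start, against 50.1% of all such windows, and in 82.5% of those without, against 7733 of all 30936 such windows. TATAAA was present in 103 (55.1%, against 13.6%). The palindromic site of early B-cell factor, a regulator of olfactory neuron genes, searched in 1 spelling, was present in 0 of the 187, against 0.904% of all. TAATNA and TATAAA are rich in A and T, as these windows are, and the matches are a description of the letters only. The windows include 50 bases after the start, which are coding sequence where the start is ATG. In the Olfr988 window the only match to TAATNA lies after the ATG. Matches before and after the start were not counted apart.

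Spots of the cluster were dim in both channels. In scanner units, the median background-subtracted input signal of its probes was 13.1, 22.0 and 9.81 with restriction and 27.8, 7.81 and 14.1 without. This was between 0.202 and 0.280 times the median of all other probes of the same array. The immunoprecipitated signal had a median of 19.9, 16.4 and 14.7 with restriction and 19.8, 16.9 and 12.9 without. This was 0.124 to 0.140 times the median of all other probes. Relative to the rest of the array the cluster was dimmer in the immunoprecipitated than in the input channel, by 0.85 ± 0.13 on the log2 scale (SD, 6 arrays), on every array. Neither ratio differed between the diets beyond the spread between arrays (two-sided exact permutation p = 1 for input and 0.9 for immunoprecipitated signal, n = 3 per group).

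Both channels were well above background on all 6 arrays for 436 of the 1594 probes (27.4%), against 67.8% of the other probes. In 188 of the 216 regions, fewer than 50% of the probes were that bright, and in 24 regions none was. For 722 probes (45.3%, against 11.4% elsewhere), the signal of at least 1 channel on at least 1 array was not positive and significant by the scanner software. Between 98.5% and 99.3% of all such spots per array and channel had a processed signal above the background-subtracted signal times the linear dye factor. Their median processed signal was 16.2 to 31.0, against 5.28 to 13.1 for the latter. Among significant spots, the processed signal differed by over 1% from that product in 68.2% to 88.8% of spots in 10 of the 12 channels, in either direction, and in 0% in the other 2. The file headers record a multiplicative detrending in 10 channels.

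**Figure D2:**
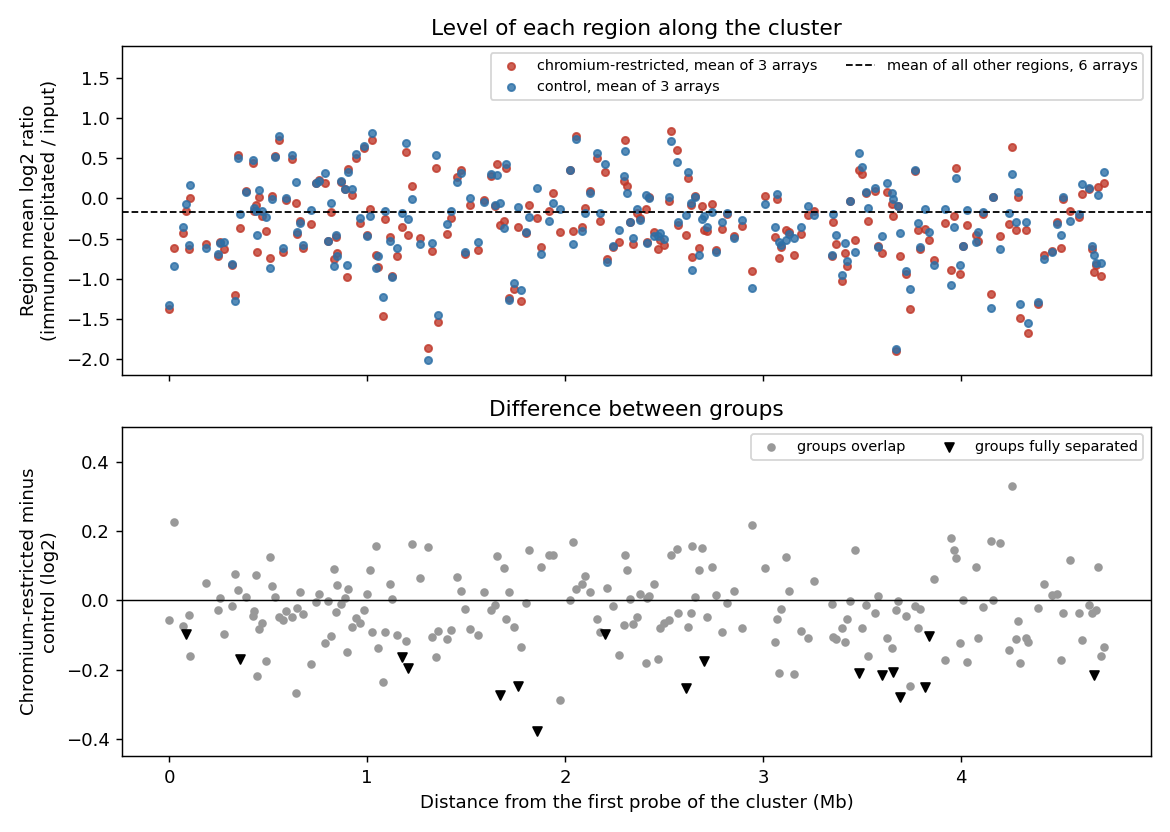
Mean log2 ratio of each of the 216 regions (top; 1 point per group, mean of 3 arrays; dashed line, mean of all other regions) and the difference, chromium-restricted minus control (bottom; triangles, regions whose groups do not overlap), by distance from the first probe of the cluster in Mb. Means over all 6 arrays scatter between -1.94 and 0.78 along the whole length, and the 17 triangles all lie below 0.

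The first question was how the level of the cluster compared with other parts of the array. The mean over the 216 regions was -0.29, -0.38 and -0.29 with restriction, and -0.37, -0.24 and -0.25 without. The groups overlapped. The 21771 other regions averaged -0.17 ± 0.036 (SD, 6 arrays), and the cluster lay below them on 6 of 6 arrays, by 0.088 to 0.17. The mean difference was -0.13 ± 0.032 (SD, 6 arrays). It lay also below the 108 regions in the 5 Mb to each side of the cluster on chromosome 2, with a difference of -0.19 ± 0.043 on 6 of 6 arrays. In a two-sided exact sign-flip permutation test over the 6 arrays, each gave p = 0.0312, the smallest this test can give, and 0.0521 after Benjamini-Hochberg adjustment over 5 contrasts, so neither passed 0.05. All arrays carry the same probes, so the test covers only the spread between arrays.

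Further windows, on chromosomes 7, 9 and 17, known to hold olfactory receptor genes served as the most similar parts. Their limits came from general knowledge of mm9 and were not checked against an annotation, and the window on chromosome 7 also holds the beta-globin genes. The cluster differed by 0.016 ± 0.038 from the 188 regions on chromosome 7 from 109625919 to 114092305 (exact sign-flip permutation p = 0.406, adjusted 0.406; higher on 4 of 6 arrays). Against the 55 regions on chromosome 17 from 37117692 to 38558123 the difference was -0.026 ± 0.035 (exact permutation p = 0.188, adjusted 0.234; lower on 4 of 6 arrays). Against the 95 regions on chromosome 9 from 37610388 to 39882358 it was -0.054 ± 0.016 (exact permutation p = 0.0312, adjusted 0.0521; lower on 6 of 6 arrays). These windows had means of -0.32, -0.28 and -0.25 on chromosomes 7, 17 and 9, all below the rest of the array.

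**Figure D3:**
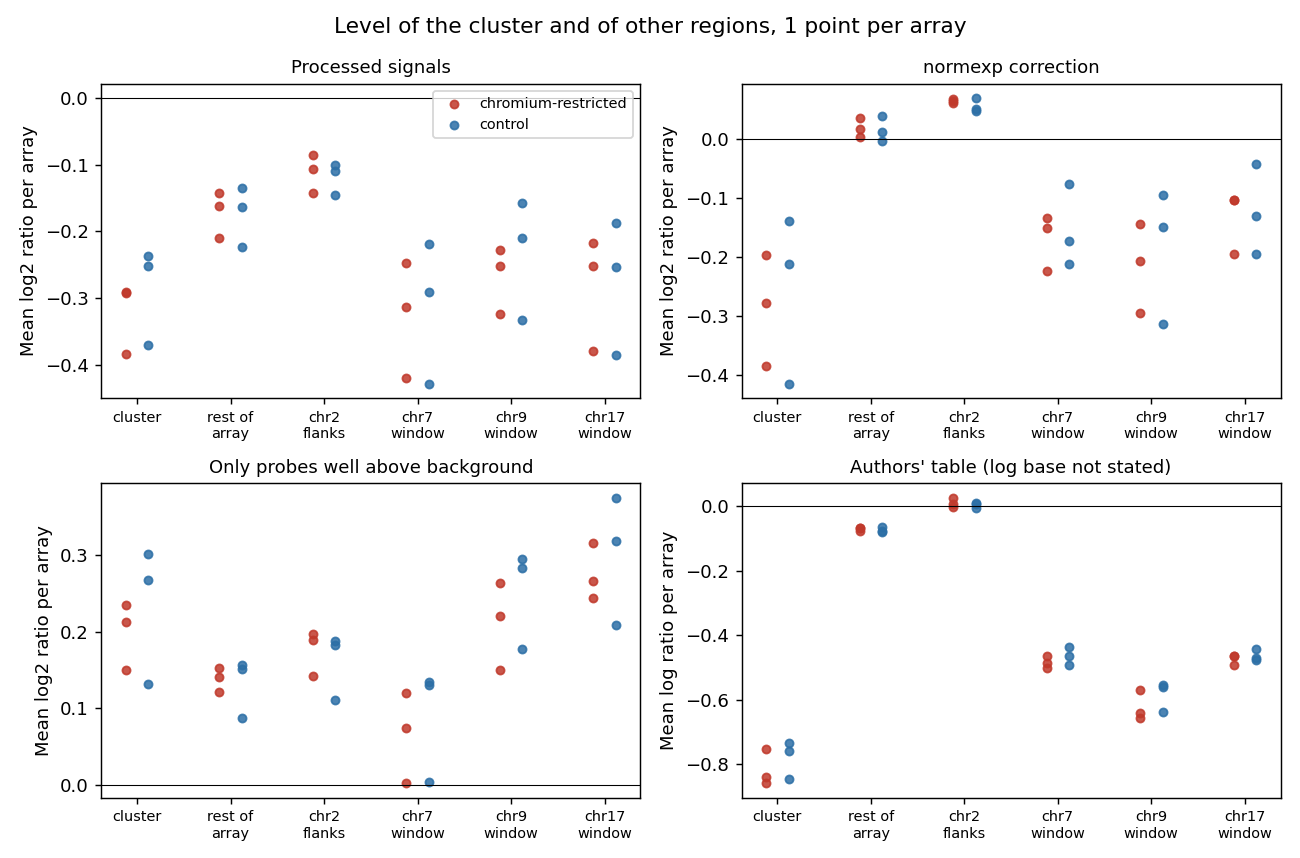
Mean log2 ratio (authors' table, log ratio of unstated base) over the regions of the cluster, the rest of the array, the chromosome 2 flanks and the 3 other olfactory receptor windows, 1 point per array, coloured by group, under 4 ways of processing. The cluster lies below the rest of the array in 3 panels and, with only probes well above background, at 0.22 against 0.13 on average.

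The size of the difference varied with the processing and the choice of probes, and why was not tested. In the authors' deposited table, the cluster lay at -0.80 ± 0.055 and the rest at -0.072 ± 0.0057 (SD, 6 arrays), a difference of -0.73 on its own log scale. After normexp, a background correction by a model of signal plus noise, the difference was -0.29. In both, the cluster lay below each of the other 5 parts of the array on average, chromosome 7 included (exact permutation p = 0.0312, adjusted 0.0312 for each contrast). With only probes well above background in both channels, which also removes probes with little immunoprecipitated DNA, 60 regions of the cluster were left. They averaged 0.22 ± 0.066 against 0.13 ± 0.027 elsewhere, a difference of 0.081 in the other direction (exact permutation p = 0.125, adjusted 0.195). Against chromosome 7 the difference was then 0.14 ± 0.017 and against chromosome 17 -0.072 ± 0.017 (exact permutation p = 0.0312, adjusted 0.0781 for each), and against chromosome 9 it was -0.015 ± 0.023. With only probes whose signals were all positive and significant, 168 regions of the cluster were left, and the difference from the rest was -0.058 ± 0.10 (exact permutation p = 0.312). This choice, too, removes probes with little immunoprecipitated DNA. Per array, that signal was positive and significant for 66.2% of the cluster's probes on average, against 91.7% of the others.

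Probes were then sorted by the input signal alone, a choice made after the data had been seen. Of the cluster's probes, 38.8% had a mean input under 10 scanner units, against 7.04% of the others, and 11.7% had 80 or more, against 43.9%. Among the 619 dimmest, the cluster differed from other probes of the class by 0.060 ± 0.15. In the classes from 10 to 20, 20 to 40, 40 to 80 and from 80 upward, with 273, 287, 229 and 186 probes of the cluster, the difference was -0.044 ± 0.071, -0.19 ± 0.079, -0.29 ± 0.063 and -0.33 ± 0.10 (SD, 6 arrays). The last 3 were negative on 6 of 6 arrays (exact sign-flip permutation p = 0.0312 each; 0.375 and 0.219 for the dimmest classes). In the brightest class the cluster's probes had a mean log2 ratio of -0.50 ± 0.057 and the others -0.17 ± 0.056.

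**Figure D4:**
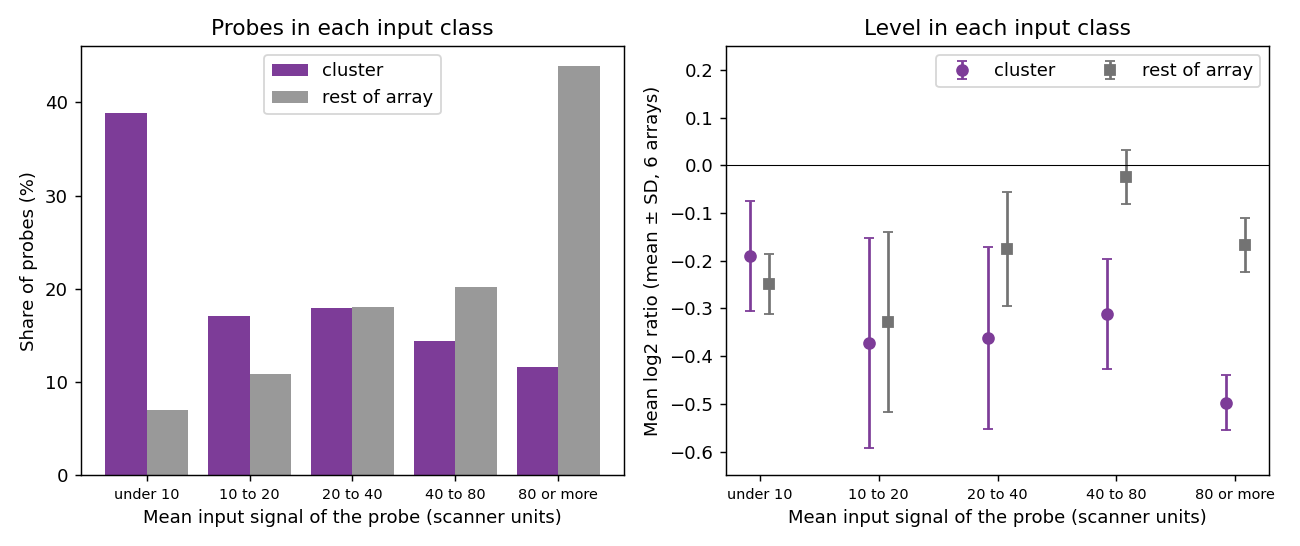
Left, share of probes (%) by mean input signal in scanner units, for the cluster and the rest of the array; right, mean log2 ratio in each class (points, mean of 6 arrays; bars, SD). The cluster's share falls from 38.8% in the dimmest class to 11.7% in the brightest, and its level lies below the others with a difference of -0.19 in the class from 20 to 40 units and of -0.33 from 80.

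Levels differed among regions more than among arrays. The region means ran from -1.94 to 0.78 with a median of -0.29, and the SD over regions was 0.50. The SD between arrays of a group, pooled over both, had a median of 0.16 per region, against 0.12 in other regions. A mean above 0 was found in 58 of 216 regions (26.9%, against 40.9% of all regions), one of 1 or more in 0 (0.368% of all) and one of -1 or less in 15 (6.94%, against 6.33% of all). No region had -2 or less, against 1.57% of all. Probes within a region differed widely, with a median SD of 1.12, as in other regions (1.12). The SD over regions was smaller in the cluster than elsewhere on each array, by 0.086 ± 0.011 (exact sign-flip permutation p = 0.0312), but larger by 0.028 with only probes well above background. Means of neighbouring regions were nearly unrelated (Pearson r = 0.092 over 215 neighbouring pairs, a description, since regions share arrays).

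Position along the cluster was described in 12 windows of 0.4 Mb. The highest window, from 87100000 to 87499999, averaged -0.029 over 18 regions, and its arrays ran from -0.094 to 0.049. The lowest was the first, which ends at 85499999, with -0.58 over 11 regions and arrays between -0.77 and -0.43. The arrays of these windows did not overlap, but the windows were picked as highest and lowest of the 12 from these same values. The last window, from 89500000 to 89899999, had -0.48 over 17 regions. At the edges, the first region inside the limits, from 85171554, had a level of -1.36 ± 0.21, and the nearest outside, from 85036363, had 0.18 ± 0.13 (SD, 6 arrays). At the other end, the last region inside, from 89891987, had 0.26 ± 0.14 and the nearest outside, from 89959261, -0.49 ± 0.086.

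The highest levels are given first. The region from 87707015 to 87708574 led, with 1.08, 0.61 and 0.83 with restriction and 0.80, 0.67 and 0.66 without. Its 7 probes ran from -1.28 to 2.18, and only 1 of them was well above background on all arrays. The region from 86196101 to 86197642 rested on brighter spots, 3 of 7 well above background, with 0.72, 0.68 and 0.77 with restriction and 0.95, 0.77 and 0.72 without. The other 3 of the 5 highest regions started at 85725659, 87226575 and 87475415, with means of 0.75, 0.76 and 0.66 over the 6 arrays. In each of the 5 the groups overlapped. In the authors' deposited table, on its own log scale, these 5 levels were 0.089 for the region from 87707015, 0.15 from 86196101, 0.065 from 85725659, 0.020 from 87226575 and -0.055 from 87475415. After normexp they ran from 0.10 to 0.25. With only bright probes, the regions from 85725659 and 86196101 had 1.06 and 1.17, and the other 3 gave no value.

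The 5 lowest regions started at 86479387, 86530631, 88841950, 89470565 and 89507552. The lowest, from 86479387 to 86481070, had -1.69, -2.04 and -1.85 with restriction and -2.29, -1.77 and -1.98 without. Its 6 probes were uneven, with 3 between -4.17 and -2.96 and 3 between -0.90 and -0.055. The region from 88841950 to 88843595 had -1.98, -1.92 and -1.82 against -2.26, -1.81 and -1.56. In these 5 regions 0 or 1 probes were well above background on all arrays, and the groups overlapped. Their levels ran from -2.14 to -1.39 in the authors' table and from -0.90 to -0.58 after normexp. The longest region, from 86000100 to 86004285, held 16 probes and had -0.77, -0.81 and -0.68 against -0.81, -0.85 and -0.87, groups that overlapped. The next in number of probes, the first of 19 regions with 9, started at 85600032. Its level was -0.16 ± 0.25 with restriction and -0.12 ± 0.16 without (SD, n = 3 each), but 0.74 with its 5 bright probes and 0.041 after normexp.

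The second question was whether the cluster differed with the diet of the dam. Its mean was -0.32 ± 0.053 with restriction and -0.29 ± 0.073 without (SD, n = 3 each), a difference of -0.036 (two-sided exact permutation p = 0.5; the smallest p that 3 against 3 arrays allow is 0.1). Relative to all other regions of the same array the difference was -0.038 (exact permutation p = 0.3). Within scans 1, 2 and 3, each holding 1 array per group, the difference of the cluster mean was 0.078, -0.15 and -0.039, and relative to the rest 0.017, -0.071 and -0.059. In scan 1 the control array had the brighter input of the pair (array median 98.3 against 53.1 scanner units), in scan 2 the chromium-restricted array (83.8 against 38.1) and in scan 3 the control array (60.4 against 46.1); the part of input brightness in the difference was not tested. Over the 6 arrays the level of the cluster relative to the rest had no correlation with the log2 median input that passed 0.05 (Pearson r = -0.542, exact permutation p = 0.264; Spearman rho = -0.543, exact permutation p = 0.297; r = -0.348 without control arrays 1 and 2; 1 relation computed). A scan holds 2 arrays, too few for a correlation within scans. For the cluster mean itself no correlation with input was computed. The arrays with the brightest input, control 1 and chromium-restricted 2 (98.3 and 83.8), had the lowest cluster means (-0.37 and -0.38). Control array 2, with the dimmest input (38.1), had the highest (-0.24). The other arrays, with inputs from 46.1 to 60.4, had means from -0.29 to -0.25. The same arrays were the extremes for the rest of the array. Its mean was lowest on control 1 and chromium-restricted 2 (-0.223 and -0.210) and highest on control 2 (-0.135). Slide position was 2 for each array of the restriction group and 4 for each control array, so position and diet cannot be told apart.

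With limma and Benjamini-Hochberg adjustment over all regions, 0 of the 216 regions differed between the groups at an adjusted p of 0.05 (0% of all 21987 regions; lowest adjusted p in the cluster 1.0). At an unadjusted p under 0.05 there were 12 (5.56%, against 0.896% of all regions), and all 12 were lower with restriction, with differences from -0.38 to -0.17 (over all regions 0.487% were lower and 0.409% higher at this p). The groups were fully separated in 17 regions (7.87%, against 4.44% of all). In all 17 the chromium-restricted arrays were the lower ones (1.95% of all regions were separated this way and 2.49% the other way). They include the 12. With 1 array left out the direction was not always uniform. Without chromium-restricted array 2, 9 of 13 regions at this p and 27 of 40 separated ones were lower. Over all regions of the array these were 101 of 332 and 1048 of 2984. Without control array 2 they were 6 of 9 and 24 of 30 (all regions, 92 of 276 and 1072 of 2742). Without control array 3 they were 5 of 7 and 20 of 27 (all, 43 of 119 and 808 of 2033). Without chromium-restricted array 1 they were 9 of 10 and 28 of 30 (all, 90 of 130 and 1080 of 2043). Without chromium-restricted array 3 they were 6 of 6 and 28 of 34 (all, 163 of 274 and 1246 of 2712). Without control array 1 they were 16 of 16 and 42 of 47 (all, 433 of 558 and 1899 of 3228). The direction over all regions thus also varied with the array left out. A difference of at least 0.3 as well was found in 1 of the 17 (0.463% of the cluster, against 0.0773% of all regions). The differences of single regions had a median of -0.035, and the median region had a 95% confidence interval of 0.26 either way. In all, 138 of 216 differences were below 0, while over the whole array 52.5% were above 0. The regions share their 6 arrays and are not independent. Of the 1594 probes, 0 passed the adjusted threshold in limma (0% of all probes) and 46 had an unadjusted p under 0.05 (2.89%, against 1.3% of all).

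The counts varied with the processing and the choice of probes, and why was not tested. Among the 74 regions with at least 3 probes well above background, the mean over those probes was lower with restriction in 51 (68.9%, against 45.8% of 19945 such regions of the array), with a median difference of -0.041. When regions were rebuilt from bright probes alone, 1 of 60 regions was separated (1.67%, against 3.81% of all such regions) and 1 had an unadjusted limma p under 0.05 (1.67%, against 0.409%). With normexp 1 of 216 was separated (0.463%, against 2.66%) and 0 had such a p (0.168% of all). The authors' table gave 12 separated regions (5.56%, against 4.56%), of which 10 were lower with restriction, and 6 with such a p (2.78%, against 0.673%). With only probes whose signals were all positive and significant, 6 of 168 regions were separated (3.57%, against 4.22%), 3 of them lower with restriction, and 3 had such a p (1.79%, against 0.573%). The difference of the cluster mean was -0.034 with bright probes, -0.031 with normexp, -0.037 in the authors' table and -0.020 with only probes whose signals were all positive and significant.

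Among the separated regions, those with the 6 largest differences are given by array. The largest belonged to chromosome 2 from 87030607 to 87032143, with -0.56, -0.11 and -0.072 with restriction and -0.049, 0.26 and 0.18 without. The highest chromium-restricted and the lowest control array lay close together. Restriction minus control was -0.38, with SE 0.14, limma unadjusted p = 0.0292, adjusted p = 1.0 and a 95% confidence interval from -0.70 to -0.049, and -0.22 without chromium-restricted array 1. Of its 7 probes 5 were lower, and 1 was well above background on all arrays.

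The region from 88991111 to 88992555 had the smallest unadjusted p of the cluster. Its values were -0.36, -0.45 and -0.34 with restriction and -0.20, -0.10 and -0.11 without. Here the arrays of each group lay close to each other. Restriction minus control was -0.25, with SE 0.075, limma unadjusted p = 0.00986, adjusted p = 1.0 and a 95% confidence interval from -0.42 to -0.078. Of its 7 probes 6 were lower. The difference was -0.061 after normexp, -0.098 in the authors' table and -0.11 with the median over probes. The region from 88863819 to 88865238 had -0.55, -0.78 and -0.81 against -0.37, -0.51 and -0.41. Each of its 7 probes was lower, though not all had positive and significant signals on all arrays. The difference was -0.28 (SE 0.093; limma unadjusted p = 0.0165, adjusted 1.0). Both lie in the window from 88700000 to 89099999, which held 5 of the 17 separated regions and the largest difference of the 12 windows, -0.11, with 2 of 19 regions higher in the chromium-restricted group.

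The region from 87783293 to 87784921 had -0.40, -0.44 and -0.52 with restriction and -0.022, -0.27 and -0.31 without, a difference of -0.25 with all 8 probes lower. Without control array 1, the highest, it was -0.16. The region from 86840814 to 86842401 had -0.43, -0.34 and -0.22 against -0.17, 0.15 and -0.16, a difference of -0.27 that was -0.17 without control array 2. It was -0.75 with the median over its 7 probes, of which 0 were well above background on all arrays. The region from 86933056 to 86934804 had -0.30, -0.43 and -0.35 against -0.11, 0.055 and -0.28, a difference of -0.25 that was -0.16 without control array 2. Each of the 6 had an adjusted limma p of 1.0, and none is counted as changed. All 6 differences were smaller after normexp, between -0.097 and -0.042. In the authors' table they lay between -0.12 and -0.036 on its own log scale. The base of that scale is not stated, so their size cannot be compared. The leading region, from 87030607, had -0.062 after normexp and -0.11 in the authors' table. In the 17 separated regions between 0 and 4 probes were well above background on all arrays. In each of the 6, only 2 to 4 probes had positive and significant signals on all arrays. Probes without such signals could have nearly the same values by array in different regions. The probe at 87784650 had -0.16, 0.39 and -0.51 with restriction and 0.67, -0.44 and -0.073 without. A probe of another region, at 86003237, had -0.084, 0.39 and -0.59 against 0.61, -0.36 and -0.13. Counts of lower probes are thus not counts of independent measurements.

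**Figure D5:**
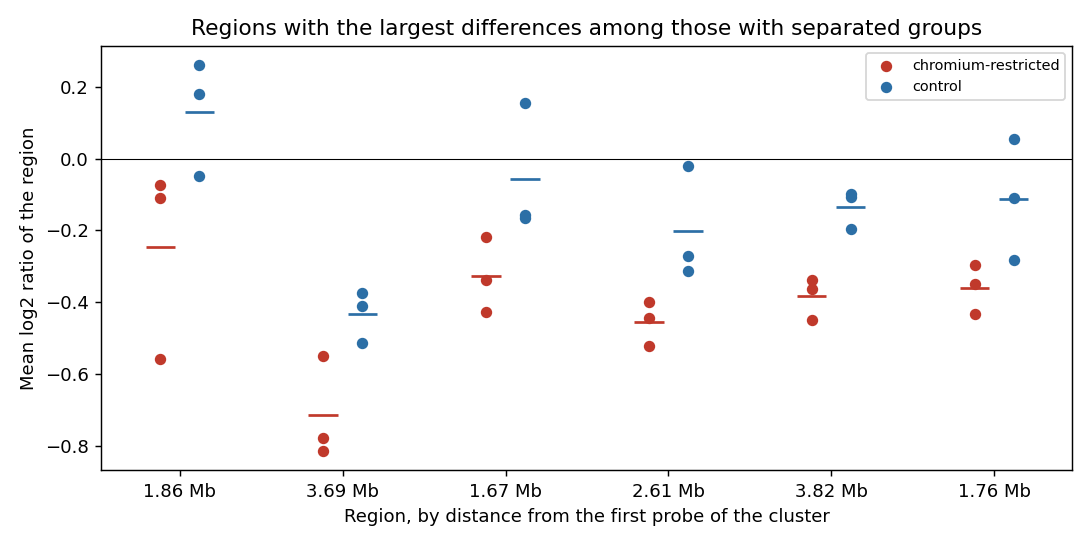
Mean log2 ratio per array (points) and group mean (short lines) in the 6 separated regions with the largest differences, named by distance from the first probe of the cluster in Mb. Group differences run from -0.38 to -0.25, and the gap between the groups is narrow in the region at 1.86 Mb.

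Arrays agreed on the order of regions regardless of diet. Over the 216 regions, Pearson correlations between arrays ran from 0.834, between chromium-restricted array 3 and control array 1, to 0.950, between chromium-restricted array 2 and the same control array. The points here are regions of the same arrays, not replicates. Region means of the processed signals correlated with those of the authors' table at 0.822 and with those after normexp at 0.889 over the same regions.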

How the data were processed

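Per the file headers, Agilent Feature Extraction 11.0.1.1 made the spot values. The deposited intensity values used were the processed signals (background-subtracted, scaled by linear dye factors and, in 10 of 12 channels, detrended, per the file headers), the spot and background medians and the background-subtracted signals, with the software's 0 or 1 flags. The authors' deposited table holds normalized log ratios taken as log2, although no source used here states its base or method; its direction, red over green, follows from its positive correlation with the scanner ratios.

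Left out were 5827 control spots and 360 of 174638 other probes that the software marked as non-uniform or as outliers of their population on at least 1 array. Log2 ratios were centred per array, with no loess or quantile step. Regions and probes of the whole array were fitted with limma 3.58.1 in R 4.3.3 (lmFit, eBayes, group as the only term), and adjusted over all of them at 0.05. Single values per array were compared with exact permutation tests. Normexp used spot medians, in place of the planned means, and background medians, with an offset of 50. The scripts were tested on simulated data. Plots come from Python 3.11.15 and matplotlib 3.10.9. The number of arrays limits the precision.

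Regions were named by rule: the 5 highest and 5 lowest levels, up to 6 separated regions per direction with the largest differences (none was higher in the chromium-restricted group), the smallest p and the 2 with most probes. The rule's olfactory signalling genes were not analysed here, since regions were not matched to genes. The members, the windows, the rule and the alternatives were chosen with earlier results of these data known. Arrays with the same number shared a scan, per the file headers.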

Additional observations from a re-analysis of the deposited data

How the results depend on the processing

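The alternatives by input class, with only significant signals and with ratios of medians were chosen after seeing the data. The difference between the cluster and the rest of the array, -0.13, was -0.29 with normexp, -0.73 in the authors' table, -0.16 with a gap of 500 bp, -0.85 from ratios of medians, 0.081 with only bright probes, -0.058 ± 0.10 without raised signals (only probes positive and significant in both channels on all arrays; exact permutation p = 0.312), and 0.060, -0.19, -0.29 and -0.33 in input classes under 10, 20 to 40, 40 to 80 and from 80. Against the flanks normexp, the authors' table, the 500 bp gap, bright probes and only significant signals gave -0.33, -0.81, -0.21, 0.048 and -0.098. Against chromosome 7 they gave -0.11, -0.33, -0.011, 0.14 and 0.0085, and the median over probes -2.8e-04. Against chromosome 9 they gave -0.070, -0.20, -0.070, -0.015 and -0.076, and against chromosome 17 -0.14, -0.33, -0.066, -0.072 and 0.024. Why these values differ was not tested. The SD over regions, lower by 0.086 in the cluster, was higher by 0.028 with bright probes and by 0.14 without raised signals, and -0.090 to -0.084 when 1 array was left out, where p cannot go below 0.0625.

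The diet difference of the cluster mean kept its sign under every alternative run and was -0.078 to -0.0052 when 1 array was left out (-0.0052 without chromium-restricted array 2, -0.011 without control array 2, -0.018 without control array 3, -0.078 without control array 1). Relative to the rest it was -0.055 to -0.026 (-0.026 without control array 3), and -0.023 with only significant signals. The order of the arrays did not hold. After normexp the cluster means were -0.38, -0.20 and -0.28 with restriction and -0.21, -0.42 and -0.14 without. In the authors' table they were -0.86, -0.75 and -0.84 with restriction and -0.76, -0.85 and -0.74 without. In both, the difference within scans 1 and 2 had the opposite sign to that of the processed signals. The 12 regions with an unadjusted limma p under 0.05 (5.56%, against 0.896% of all regions) became 0 with normexp (0.168% of all), 1 with bright probes (1.67%, against 0.409%), 6 in the authors' table (2.78%, against 0.673%), 1 with the median over probes (0.463%, against 1.33%), 7 with the replicate block (3.24%, against 0.509%), 28 with input brightness as covariate (13%, against 3.86%) and 6 with the unmoderated statistic (2.78%, against 1.98%). They were 6 to 16 when 1 array was left out (6 without chromium-restricted array 3, 2.78% against 1.25%; 7 without control array 3, 3.24% against 0.541%). The 17 separated regions (7.87%, against 4.44%) became 1 with normexp (0.463%, against 2.66%), 1 with bright probes (1.67%, against 3.81%) and 7 with the median over probes (3.24%, against 4.52%). With 1 array fewer, where fewer arrays separate more easily, they were 27 (12.5%, against 9.25%) to 47 (21.8%, against 14.7%). The 46 probes (2.89%, against 1.3%) became 1 with normexp (0.0627%, against 0.253%), 5 with bright probes (1.15%, against 0.733%), 20 in the authors' table (1.25%, against 0.766%) and 97 with the covariate (6.09%, against 3.9%). They were 43 to 88 with 1 array left out (88 without chromium-restricted array 2, 5.52% against 2.44%; 74 without control array 1, 4.64% against 2.38%; 71 without control array 2, 4.45% against 1.9%). With the replicate block 68 probes had an unadjusted p under 0.05 (4.27%, against 1.32%), and 0 regions and 0 probes passed the adjusted threshold, as under every other alternative run. Deviations of same-numbered arrays correlated at 0.079, -0.39 and 0.21, so apart from their common scan, same-numbered arrays were not treated as pairs. The level of the region from 85600032 changed sign to 0.041 with normexp and 0.74 with bright probes, and that from 87475415 to -0.055 in the authors' table. The 6 differences named kept their sign under all alternatives that gave a value, but were 2.9 to 6.1 times smaller with normexp. In the authors' table they were 2.3 to 7.0 times smaller only if its log base is 2, which no source used here states.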
